A study of Homo sapiens with 6 samples.

Results

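KCNQ1OT1 is a long noncoding RNA transcribed antisense to KCNQ1 on the short arm of chromosome 11. The positions described here were those of the 2 mutation tables that lay on chromosome 11, minus strand, from 2597308 to 2700003 (hg38), the span of the gene KCNQ1OT1 (ENSG00000269821.2) in GENCODE release 44. There were 4303 such positions of 387463 in all. Of these, 2476 were listed under imbalanced dNTP (176343 in all), 2037 under balanced dNTP (246881 in all), and 210 under both (35761 in all).

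The libraries were made from chromatin-associated RNA (caRNA) of HepG2, a human liver cancer cell line, freed of rRNA and of RNA under 200 nt. Each of 3 biological replicates was ligated to adapters, split, and reverse transcribed either with imbalanced dNTP (1 mM dATP, 2 μM each of dGTP, dCTP and dTTP) or with balanced dNTP (1 mM of each), which served as input, so that 6 libraries were sequenced. In this assay, Nm-mut-seq, the enzyme tends to place A opposite G, A or C whose ribose carries a 2′-O-methyl group when dATP is in excess, so that T is read there. The mutation ratio is the number of reads with T over the depth. U cannot be scored in this way, and only G, A and C positions were in the tables.

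KCNQ1OT1 is an imprinted RNA that is normally made from the paternal chromosome, from a promoter within an intron of KCNQ1. It stays in the nucleus, associates with chromatin and is known for silencing neighbouring genes on the same chromosome. 2′-O-methylation (Nm) is a methyl group on the ribose of a nucleotide, placed on many RNAs by fibrillarin guided by small nucleolar RNAs and by other methyltransferases. Both alleles are counted together here, since the tables hold no allele.

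The sites of KCNQ1OT1 with the highest mutation ratio in their lowest replicate, among those covered by 20 reads or more in each imbalanced library, are shown first, 4 for each base. For each base the called site of greatest summed depth is added, and for C it is the site at 22736 nt, which is among the 4. Each line gives the base, its distance from the start of the gene and 21 nt of hg38 on the minus strand, 5′ to 3′, with T for U and the site in capitals.
G at 13483 nt, chr11:2686510-2686530: tgtcatttccGtgacgggagt
G at 23365 nt, chr11:2676628-2676648: ctatctatctGtgaatctgtg
G at 18018 nt, chr11:2681975-2681995: gtgaaatgatGtctatatttg
G at 14575 nt, chr11:2685418-2685438: tcgttcaggtGacaattctat
G at 24068 nt, chr11:2675925-2675945: gttttaccatGtgtgtaaaga
A at 6076 nt, chr11:2693917-2693937: ctcagcggatAccggatccag
A at 17285 nt, chr11:2682708-2682728: gagattctttAtgactagaga
A at 20515 nt, chr11:2679478-2679498: tgtcactactAtaggacaggc
A at 17842 nt, chr11:2682151-2682171: agagcttgatAtgtttaatac
A at 24440 nt, chr11:2675553-2675573: actgttacgtAtgtcttatta
C at 10725 nt, chr11:2689268-2689288: tgggagatatCtgtgcaaagg
C at 22736 nt, chr11:2677257-2677277: tttacagttcCtctttataag
C at 3358 nt, chr11:2696635-2696655: tcaggattttCcaaatctgtt
C at 2112 nt, chr11:2697881-2697901: gatttatgctCcagctagagg
Every G shown but the one at 13483 nt, every A, and every C but the one at 22736 nt had a U on its 5′ side.

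Reads of KCNQ1OT1 were listed over the 5′ part of the gene. Listed positions ran from 65 nt to 51484 nt of a gene span of 102696 nt, and under imbalanced dNTP the last lay at 49090 nt. None was listed in the tables used here further on, on the opposite strand of the span, in KCNQ1 on its own strand, or in the 10 kb on either side. All listed positions fell within the exon of the unspliced isoform (2608328 to 2699994, 91667 nt), and no other gene of the annotation overlapped them on this strand. The depth of KCNQ1OT1 was low: the median depth of its listed positions was 18, 16 and 25 reads in imbalanced replicates 1, 2 and 3, and 29, 19 and 27 in the balanced replicates. KCNQ1OT1 held 0.262% ± 0.0279 (SD, n = 3) of the summed depth under imbalanced dNTP (17063930 to 22485865 in all) and 0.193% ± 0.0188 under balanced dNTP (22974020 to 34367262 in all). The tables list different positions, so these shares were not compared.

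Along the transcript, listed positions took 9.22% of the G, A and C of the first 10 kb, 8.25% of the second, 9.37% of the third, 4.43% of the fourth and 1.48% of the fifth under imbalanced dNTP. Under balanced dNTP the shares were 6.17%, 6.94%, 6.70%, 4.35% and 2.70%. The median depth in imbalanced replicate 3 was 27, 24, 27, 20 and 15 reads over the same windows, so that the listing thinned out where the depth fell. At the finer scale of 1 kb, most positions were listed from 2 to 3 kb from the start (154 of 707 G, A and C, 21.8%), where the median depth was 28, 24.5 and 38 reads, and from 24 to 25 kb (133 of 715, 18.6%), where it was 26, 24 and 40 reads. The first kilobase held 12 listed positions of 783 (1.53%).

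**Figure D1:**
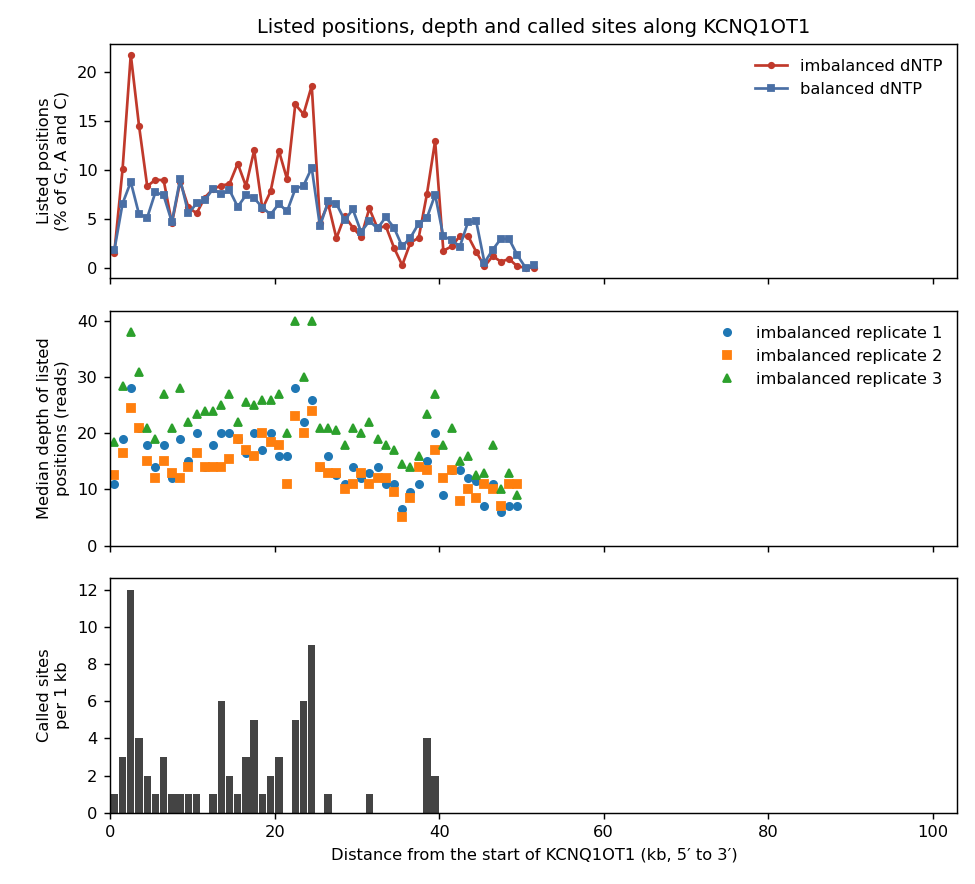
Share of G, A and C listed (upper panel), median depth of listed positions in the 3 imbalanced libraries (middle) and called sites (lower), each per 1 kb, against the distance from the start of KCNQ1OT1 in kb. Listing ends after 51484 nt, and the tallest bars of called sites are at 2 to 3 kb (12) and 24 to 25 kb (9).

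The first comparison set the reads with T in KCNQ1OT1 under imbalanced dNTP beside those in its input. Positions in the imbalanced table had 3 or more reads with T in at least 1 imbalanced library, while 1 read in any balanced library was enough for the balanced table. At depths such as those of KCNQ1OT1 this listing by itself favours a higher imbalanced share, so the values are a description. At the 210 positions listed under both, the share of reads with T was 8.999%, 8.74% and 10.2% in imbalanced replicates 1, 2 and 3. In the balanced libraries of the same RNA it was 1.28%, 1.24% and 1.14%. The groups did not overlap, and the difference was 8.10 percentage points ± 0.861 (SD of the differences, n = 3). The two-sided exact permutation test over the pairs gave p = 0.25, the smallest that 3 pairs can give, and bears no weight here because of the listing. Over all 35761 positions of the series listed under both, the shares were 3.47% ± 0.112 and 0.208% ± 0.00749. Of these, 10132 lay in the noncoding RNA NEAT1 and 4127 in MALAT1. Positions of NEAT1 and MALAT1 under imbalanced dNTP had a median lowest depth of 283 and 519 reads, against 14 in KCNQ1OT1. At such unlike depth the listing weighs differently, so the shares of the series and of KCNQ1OT1 cannot be compared.

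By base, the share under imbalanced dNTP was 9.42% ± 0.908 at the 112 G, 8.34% ± 1.02 at the 35 A and 9.70% ± 0.522 at the 63 C positions. In the balanced libraries it was 0.954% ± 0.141, 1.02% ± 0.307 and 1.85% ± 0.299 (SD, n = 3 for each). Imbalanced and balanced values did not overlap for any base, and the imbalanced values of the 3 bases overlapped each other. Among the 2037 balanced positions, 1971 (96.8%) had a single read with T over the 3 libraries together. At 2 balanced positions all reads but 1 at most carried T, and 1 of them was listed under both. Without positions of a balanced ratio over 0.2, the difference was 8.19 percentage points. Reads with a base that was neither the reference nor T made up 0.259% ± 0.0559 of the imbalanced and 0.189% ± 0.0162 of the balanced depth (SD, n = 3), ranges that overlapped.

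**Figure D2:**
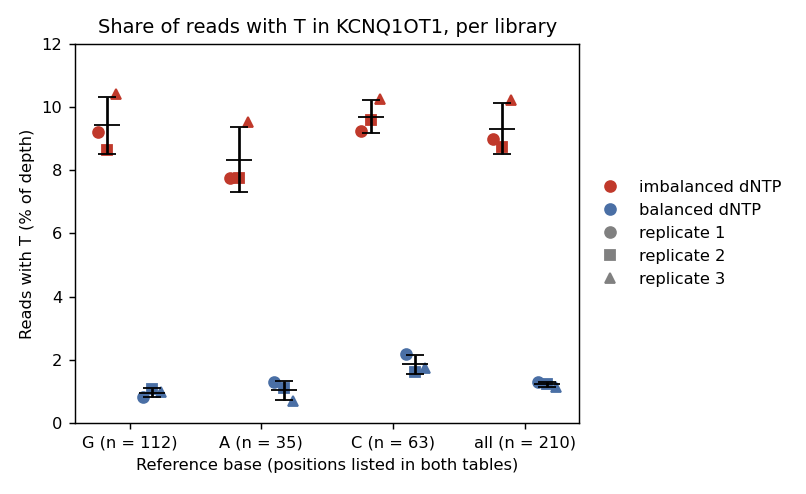
Reads with T as a percentage of depth at the 210 positions of KCNQ1OT1 listed under both conditions, by reference base. Points are libraries, bars are means and error bars are SD (n = 3), and the imbalanced libraries lie between 7.75% and 10.4% for every base while the balanced ones lie at or under 2.19%. Listing needed 3 reads with T in an imbalanced library and 1 in a balanced one.

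Position by position, 183 of the 210 were covered by 10 reads or more in each of the 6 libraries and were tested with edgeR's quasi-likelihood test, adjusted by Benjamini-Hochberg over the 32284 such positions of the series. At an adjusted p under 0.05, 32 positions of KCNQ1OT1 passed as higher under imbalanced dNTP (17.5%) and 0 as lower. The direction was largely set by the listing, since 173 of the 183 had a single read with T over all balanced libraries and 9 had 2. The same listing favours low p-values, so the number past the threshold is a description too. It can be read only beside the background, whose positions were listed in the same way. The background was 74.3% of all tested positions higher and 0.0589% lower. Among tested positions of like depth (lowest depth 10 to 49) it was 24.1% higher, above the share in KCNQ1OT1, a difference that was not tested. The 32 comprised 23 G, 3 A and 6 C. At an unadjusted p under 0.05, 42 were higher and 0 lower. DESeq2 called 48 of the 183 higher, against 24219 of 32284 over the series. The median fitted log2 change was 2.77, raised by the same listing, against 3.94 over all tested positions and 2.84 over those of like depth. The count depended on the setting. Without the replicate block it was 75 of 183, against 26946 of 32284 over the series. At a minimum depth of 20 it was 19 of 63, against 23799 of 28520. By Fisher's exact test in each replicate it was 1 of 183, against 15128 of 32284. Without replicate 1, 2 or 3 it was 1 of 188, 5 of 197 or 1 of 185. Over the series those were 17751 of 32715, 18928 of 33393 and 18101 of 32408. These series counts were not matched for depth.

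The lowest adjusted p was that of the G at 24509 nt (position 2675494). It had T in 6 of 29, 4 of 37 and 13 of 59 reads in imbalanced replicates 1, 2 and 3, and in 1 of 193 reads over the balanced libraries. Its log2 change was 4.89 (edgeR, adjusted p = 0.000265). The A at 6076 nt, whose sequence is given above, had T in 6 of 21, 4 of 22 and 10 of 38 reads, and in 1 of 128 balanced reads. Its log2 change was 4.94 (edgeR, adjusted p = 0.000681). For both positions every imbalanced library was above the pooled input. Both had been listed for their reads with T under imbalanced dNTP, which favours a low p, so these p-values only rank the positions.

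Sites were then called as positions that in all 3 replicates were covered by 10 reads or more, had 3 or more reads with T, and had a mutation ratio over 3 times the ratio in the paired input. A position not listed in the input was given an input ratio of 0. The study's further criterion, on unmodified spike-in RNA under imbalanced dNTP, was not applied, so called sites may include unmodified background. Of the 1957 KCNQ1OT1 positions that each imbalanced library covered with 10 reads or more, 82 were called (4.19%), where the background over the series was 26.7% and, at a lowest depth of 10 to 49, 5.58%. All 1957 had a lowest depth in that range. Introns of protein-coding genes at the same depths had 4.42% called (1495 of 33860). The share of called positions in KCNQ1OT1 rose with depth. It was 1.54% at a lowest depth of 10 to 14 and 3.02% at 15 to 19. At 20 to 29 it was 8.49%, and at 30 to 49 it was 9.09%. In introns the shares in the same classes were 1.35%, 3.805%, 7.301% and 14.4%. KCNQ1OT1 was above introns at 10 to 14 and 20 to 29 reads, and below them at 15 to 19 and 30 to 49. At 30 to 49 reads, 9 of 99 positions were called in KCNQ1OT1 and 480 of 3338 in introns. These differences were not tested. KCNQ1OT1 thus held 0.277% of the 29651 called sites of the series.

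The 82 sites comprised 63 G (76.8%), 13 A and 6 C. G made up 33.2% of the G, A and C in the first 50 kb, 46.4% of the positions listed under imbalanced dNTP and 37.6% of those listed under balanced dNTP. Of such covered positions, the share called was 6.77% for G, 2.55% for A and 1.16% for C, against a background at a lowest depth of 10 to 49 of 7.96% for G, 3.32% for A and 3.58% for C. In the sets that passed in single replicates, G made up 53.6%, 53.3% and 47.7% (51.5% ± 3.34, SD, n = 3).

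Most positions that passed in 1 replicate did not pass in the others. Replicate 1 met the criteria at 767 positions, replicate 2 at 643 and replicate 3 at 1493, and the 82 shared by all were 10.7%, 12.8% and 5.49% of these sets. Replicate 3, with the greatest depth, held 1110 positions that passed in it alone. Requiring only 2 replicates gave 222 sites without replicate 1, 243 without replicate 2 and 130 without replicate 3. A depth of at least 20 gave 53 sites, a ratio of at least 0.1 in every library 51, and at least 5 reads with T only 7. With input and mutated libraries swapped, 0 sites were called in KCNQ1OT1. That outcome was nearly fixed in advance, since 1971 of the 2037 balanced positions had a single read with T over the 3 libraries together. Of the 82 sites, 13 were listed in the input and 69 were not, and all 82 had a position listed in the input within 50 nt. The criterion on the input removed few positions: 0, 3 and 1 that met the other criteria in replicates 1, 2 and 3.

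The mutation ratios of the called sites, as the mean of 3 replicates, ran from 6.98% to 39.7% with a median of 16.3%. The median of the lowest depth was 21 reads, at which the required 3 reads with T amount to 14.3%. At least 1 replicate had exactly 3 reads with T at 63 of the 82 sites. The median ratio of called sites fell from 22.8% at a lowest depth of 10 to 14 to 18.5%, 14.1% and 10.7% at 15 to 19, 20 to 29 and 30 to 49 reads, so that the ratio of a called site depends on its depth.

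**Figure D3:**
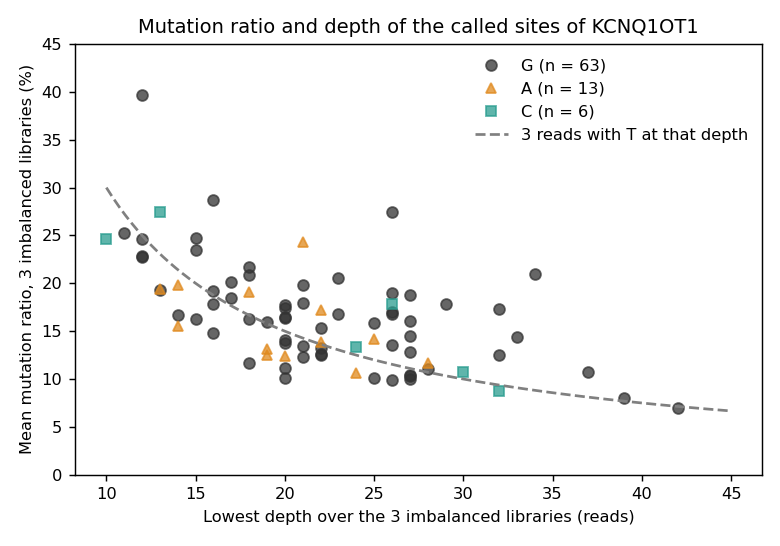
Mean mutation ratio (%) of the 82 called sites of KCNQ1OT1 against the lowest depth over the 3 imbalanced libraries, by base. The dashed line is the ratio that 3 reads with T give at that depth, and 63 of the 82 sites had exactly 3 such reads in at least 1 replicate.

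The 7 sites with at least 5 reads with T in every imbalanced library comprised 6 G and 1 C. The G at 38948 nt (position 2661055) had the highest mean ratio, 39.7%, with T in 5 of 12, 7 of 20 and 11 of 26 reads. It lay in the far, thinly covered part of the listed stretch. The G at 13483 nt had T in 10 of 40, 7 of 26 and 11 of 36 reads, which is 27.5% ± 2.82 (SD, n = 3), and in replicate 1 its 95% Wilson interval was 14.2% to 40.2%. Such intervals cover counting error only. At the other end, the G at 3896 nt (position 2696107) had T in 3 of 47, 3 of 42 and 4 of 54 reads. Its mean ratio of 6.98% was the lowest of the called sites.

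Others of these 7 sites were the G at 2205, 17711 and 24442 nt, with mean ratios of 15.8%, 28.7% and 18.98%. The G at 23365 nt had T in 6 of 34, 8 of 43 and 12 of 45 reads, or 20.97% ± 4.95. The C at 10725 nt had T in 5 of 26, 7 of 30 and 5 of 46 reads, or 17.8% ± 6.35. For this C the 3 replicates ranged from 10.9% to 23.3%. The deepest called G, at 24068 nt, was not among the 7 and had T in 5 of 63, 4 of 39 and 4 of 68 reads, or 8.03% ± 2.19.

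Called sites lay between 882 and 39688 nt from the start. The first 4 windows of 10 kb held 29, 22, 24 and 7 of them and the fifth none, though 45 of its positions were covered by 10 reads or more. Of the 50 windows of 1 kb with positions listed under imbalanced dNTP, 27 held a called site. The windows with most were those from 2 to 3 kb (12 sites) and from 24 to 25 kb (9 sites), which were also those with most listed positions. The share of reads with T at all listed positions was 8.60% ± 0.526, 9.18% ± 0.557, 8.45% ± 0.914, 10.1% ± 1.43 and 13.2% ± 0.544 (SD, n = 3) over the 5 windows. It was highest where the depth was lowest, and the part of depth in this was not tested.

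Against the annotation, 15 of the 82 called sites fell in exons of spliced isoforms of KCNQ1OT1, as did 351 of the 2476 listed positions (14.2%). Within the first 40 kb, called sites made up 4.97% of the positions covered by 10 reads or more in these exons and 4.16% of those outside them. The share of reads with T was 8.81% ± 0.522 in the exons and 8.88% ± 0.795 outside, a difference smaller than the spread between replicates. No called site lay opposite an exon of KCNQ1. Close neighbours were 20 of the 82 sites (24.4%), within 10 nt of another, in 10 pairs. Of the 1957 positions covered by 10 reads or more in each imbalanced library, 1604 (82.0%) lay within 10 nt of another. The 82 sites are a sparser set, so the shares cannot be compared, and grouping of the sites was not tested. In the pair at 13483 and 13485 nt the ratios were 27.5% and 10.1%. Neither the 51-nt context of any listed position nor a match of at least 90% identity over 80 nt around any called site occurred elsewhere in hg38.

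The sequence beside the base separated the positions of KCNQ1OT1 more than the base alone. Of the 868 G with a U on both sides (UGU) in the first 50 kb, 39.98% were listed under imbalanced dNTP, against 18.7% of the 3075 G with a U on the 5′ side only, 6.65% of the 1565 with a U on the 3′ side only and 1.74% of the 7082 with no U beside them. Under balanced dNTP the same classes were listed at 7.37%, 7.15%, 5.43% and 5.59%. For A, the imbalanced shares were 23.2%, 10.1%, 5.93% and 2.31% in the same order, and the balanced ones 6.46%, 3.95%, 5.25% and 4.39%. For C, they were 9.51%, 8.53%, 5.89% and 4.34%, and 6.58%, 5.86%, 4.93% and 5.47%. The order of the classes was thus the same for the 3 bases under imbalanced dNTP, with the widest range for G, and the balanced classes lay close together. All these classes share the same libraries and stretch of RNA, so the shares are a description.

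Among called sites, 50 of 82 (61.0%) had a U on both sides (UNU, where N is the site), including 44 of the 63 G (69.8%). Among positions so covered but not called, UNU made up 22.2%, and among all G, A and C of the first 50 kb 6.27%. The sets that passed in single replicates had 27.4% ± 2.14 (SD, n = 3). A U preceded 60 of the 63 called G (95.2%) and followed 45 (71.4%). The commonest called 5-mers were UUGUA at 7 sites, with a mean ratio of 14.4%, and AUGUG at 5, with 16.96%.

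Because a position had to show T to be listed, the ratio in the library that listed it is raised by that choice. The ratio was therefore read in the other libraries. Positions were chosen by a depth of 10 to 49 and at least 3 reads with T in 1 imbalanced library. The ratio was taken over the other 2, so positions deeper than 49 reads in the choosing library are left out. In KCNQ1OT1 the chosen positions (646 to 1422, depending on the library) had 15.5% ± 1.61 in the choosing library and 7.13% ± 0.263 in the others (SD over the 3 choices). The held-out ratio was 8.56% ± 0.127 for G, 5.22% ± 0.270 for A and 5.85% ± 0.0889 for C. Each choice shares libraries with the next, so these SDs are not those of independent replicates.

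By context, the held-out ratio of G was 11.8% ± 0.310 with a U on both sides, 7.31% ± 0.379 with a U before only, 5.56% ± 1.60 with a U after only and 4.45% ± 0.723 with none. The first stood apart from the others by more than this spread, and the last 2 overlapped. For A it was 7.42% ± 0.266, 6.38% ± 0.920, 3.98% ± 0.359 and 3.23% ± 0.382. C did not follow this order: its held-out ratio was 5.20% ± 0.0960 with a U on both sides and 7.01% ± 0.211 with none.

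**Figure D4:**
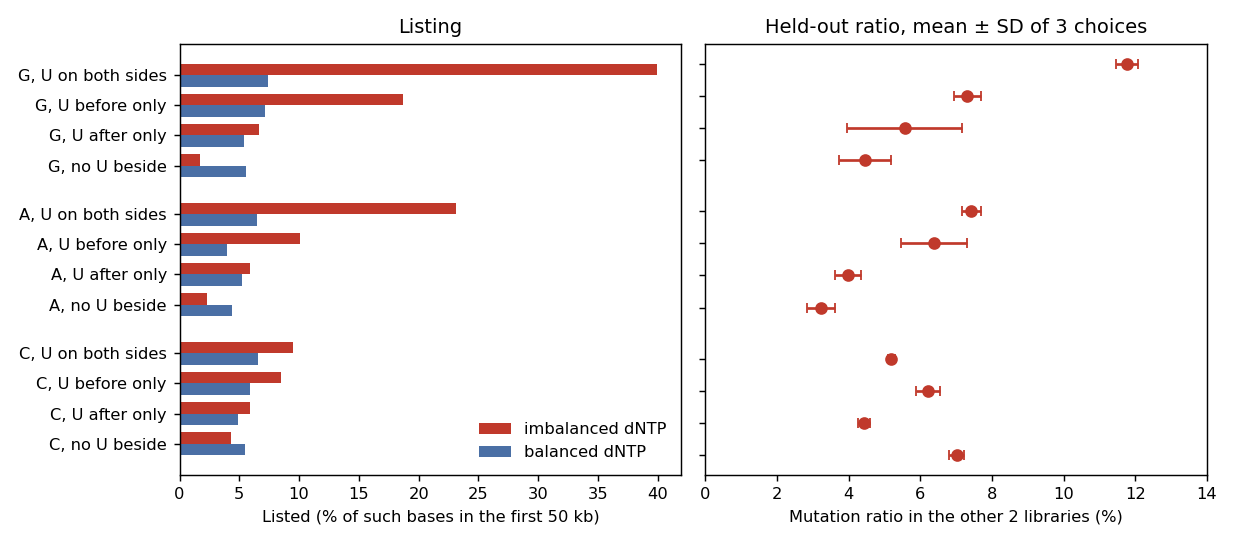
Share of bases in the first 50 kb of KCNQ1OT1 listed under each condition (left) and held-out mutation ratio (right, mean ± SD over the 3 choosing libraries), by base and by U on its 5′ side (before) or 3′ side (after). G with a U on both sides has the highest values in both panels, 39.98% and 11.8%.

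KCNQ1OT1 was compared at like depth with introns of protein-coding genes and with NEAT1 and MALAT1, nuclear long noncoding RNAs of paraspeckles and of nuclear speckles. Over positions with a lowest depth of 10 to 49, the ratio of KCNQ1OT1 was 8.01%, 8.35% and 9.11% in imbalanced replicates 1, 2 and 3, and that of introns 8.67%, 8.77% and 9.04%. KCNQ1OT1 was lower in 2 of 3 libraries, by 0.338 percentage points ± 0.372 in the mean (two-sided exact permutation test on the pairs, p = 0.5, adjusted over 3 comparisons 0.5). That difference was less than its spread, but it was larger than its spread in part of the range. At a lowest depth of 15 to 29 KCNQ1OT1 was lower in 3 of 3 libraries, by 0.330 points ± 0.0765 (exact permutation p = 0.25, the smallest possible). For G at 10 to 49, KCNQ1OT1 had 8.96%, 9.40% and 9.79% and introns had 10.03%, 10.27% and 10.20%, with no overlap. The median lowest depth of these G was 16 reads in KCNQ1OT1 and 14 in introns. In narrower classes the G libraries overlapped at 10 to 14, 20 to 29 and 30 to 49 reads, and did not at 15 to 19. For A and C the libraries overlapped. NEAT1 had 4.64% ± 0.251 at its 99 such positions, 3.84 percentage points ± 0.313 lower than KCNQ1OT1 and lower in 3 of 3 libraries (exact permutation p = 0.25, adjusted 0.375, with 0.25 the smallest possible). Within that range the positions of NEAT1 were deeper, with a median lowest depth of 36 against 16 reads. They were also a small part of its 13878 positions covered by 10 reads or more in each imbalanced library. Of those 13878, 73.6% were called, against 4.19% in KCNQ1OT1, at unlike depth. The comparison thus concerns only the thinly covered positions of NEAT1, not the whole RNA. At a lowest depth of 20 to 29 the values were 7.58% ± 0.110 in KCNQ1OT1 and 5.24% ± 0.390 in 20 positions of NEAT1, and at 30 to 49 they were 6.26% ± 0.834 and 4.47% ± 0.135. MALAT1 had 6 positions of this depth, with 17.3% ± 1.25, which was 8.81 percentage points above KCNQ1OT1 and above it in 3 of 3 libraries (exact permutation p = 0.25, adjusted 0.375). With so few positions this value was unstable: the median over positions put MALAT1 1.37 points above (exact permutation p = 0.75), in 2 of 3 libraries, and its 3 positions with a lowest depth of 15 to 29 put it 18.3 points above.

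**Figure D5:**
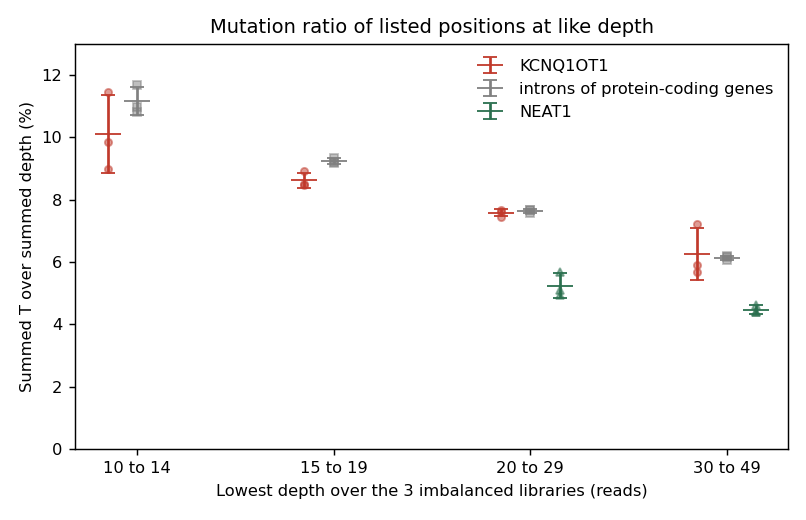
Summed T over summed depth (%) of listed positions by their lowest depth in the imbalanced libraries, for KCNQ1OT1, introns of protein-coding genes and NEAT1 (classes of at least 10 positions). Small points are libraries, bars are means and error bars SD (n = 3). KCNQ1OT1 lies below the introns in each library at 10 to 14 reads (10.1% and 11.2%), though the ranges overlap. At 15 to 19 reads (8.62% and 9.25%) it lies below them with no overlap. It overlaps them at 20 to 29 (7.58% and 7.63%) and 30 to 49 (6.26% and 6.13%), while both fall with depth.

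Among 81 genes with at least 100 positions of this depth, those whose ratios of G, A and C over the 3 imbalanced libraries were most like KCNQ1OT1 were HNRNPH1, an RNA-binding splicing regulator, TGFBR2, a receptor of TGF-β, and SNX5, a sorting nexin. Their distances over the 9 log2 ratios were 0.26, 0.26 and 0.34, against a median of 0.84 over the 81 genes. The gene farthest away was ALB, at 2.25. The median lowest depth of these positions was 19, 16 and 16 reads in the 3 nearest genes, 16 in KCNQ1OT1 and 37 in ALB, so likeness went together with depth, whose part in it was not tested. The ratios of HNRNPH1 were 8.95% for G, 7.03% for A and 7.68% for C, where KCNQ1OT1 had 9.38% ± 0.413, 7.28% ± 0.830 and 8.04% ± 0.612 (SD, n = 3).

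Of the 15 genes of the imprinted domains around KCNQ1OT1, 12 had no position in the tables used here, including KCNQ1, CDKN1C, which encodes a cyclin-dependent kinase inhibitor, PHLDA2, ASCL2 and the noncoding RNA H19. Whether the tables used here hold every row is not known, so an absence is not a measured lack of reads. NAP1L4, a histone chaperone gene, had 85 positions under imbalanced dNTP at a median lowest depth of 115 reads, and 36 of the 72 covered by 10 reads or more in each library were called. IGF2, which encodes a growth factor, had 9 positions under imbalanced and 93 under balanced dNTP, with 0 called among 2 so covered, and SLC22A18, a transporter gene, had 10 positions under balanced dNTP alone. Of 6 imprinted genes on other chromosomes (MEG3, SNHG14, AIRN, PEG3, PWRN1 and GNAS-AS1), SNHG14, the host of small nucleolar RNAs on chromosome 15, had 1263 positions under imbalanced dNTP, with 42 called of 623 so covered (6.74%, against 4.19% in KCNQ1OT1). PEG3, which encodes a zinc finger protein, had 837, with 12 called of 523 (2.29%), and the remaining 4 had none. These shares were not compared at like depth. KCNQ1OT1 had more positions listed under imbalanced dNTP (2476) than any of these imprinted genes, but the counts are not scaled to length. Its gene span was 102696 nt, against 30652 nt for PEG3 and 441754 nt for SNHG14. Of the transcripts that mark liver cells, ALB, APOB, A2M and AFP had 806 to 6477 positions under imbalanced dNTP, and FGB had none in the tables used here.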

How the data were processed

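Nm-mut-seq of HepG2 caRNA was analysed in 3 biological replicates, each with imbalanced and balanced dNTP. Before deposit, the authors used Cutadapt for adapters, BBMap for duplicates sharing a molecular identifier, TopHat2 for mapping to hg38 (several placements per read were allowed) and JACUSA for base calls. Their deposited columns hold raw read counts for every base at a position, 1 set for each library. JACUSA's deposited score was not used. By their values, listed positions had 3 or more reads with T in an imbalanced library, or 1 or more in a balanced library, and a depth of at least 5 in each library of the table.

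Sites were called by the criteria of the study, except the spike-in background, which is not analysed here. The study took that background from RNA without Nm, reverse transcribed with imbalanced dNTP. It reports fewer sites over the series than the 29651 called here. How much background remains among the called sites, and in their shares of G and UNU, was not tested. Reads with and without T were tested with the quasi-likelihood test of edgeR 4.0.16 (R 4.3.3), adjusted by Benjamini-Hochberg, with library effects, the replicate as a block and imbalanced dNTP. The fit was checked on binomial counts simulated at the observed depths, without the listing rule or added variation between replicates. That check therefore does not show how the listing affects the p-values. DESeq2 1.42.0, Fisher's exact test, other thresholds, leaving out replicates and near-copies by blastn 2.17.0 were alternatives. Other steps used Python 3.11.15, pandas 2.3.3 and scipy 1.17.1.

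The replicate numbers pair the libraries, since each pair was split from 1 ligated RNA. Deviations of log2 depth correlated at 0.75, 0.59 and 0.87 in the pairs (24432 positions). Imbalanced replicate 1 with balanced replicate 2 gave 0.70, and imbalanced replicate 2 with balanced replicate 1 gave 0.60. Depth thus set replicate 3 apart but did not tell the pairs of replicates 1 and 2 from each other. The members, gene lists and tests were chosen with earlier results of these data known. Genes named were KCNQ1OT1, those compared with it, imprinted genes, liver transcripts and the 3 most alike. Sites named were, for each base, the 4 with the highest lowest-replicate ratio at a depth of at least 20 and the deepest. The G sites at 3896, 24509 and 38948 nt were chosen after their values were seen.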

Additional observations from a re-analysis of the deposited data

How the results depend on the processing

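The depth of KCNQ1OT1 limits these results most, since 3 reads with T are a large share of about 20 reads. The difference in the share of reads with T was 7.61 to 8.40 percentage points over all settings, with its direction favoured by the listing. The comparisons at like depth kept their sign over the settings tried, but not in every depth class. At a lowest depth of 30 to 49, KCNQ1OT1 (6.26%) was above introns (6.13%) and above the 1 position of MALAT1 (5.31%). Called sites were 53 at a depth of at least 20, 7 at 5 reads with T, 51 at a ratio of at least 0.1 and 13 among positions listed under both conditions. With the libraries exchanged they were 0, which the few reads with T in the balanced libraries nearly fixed in advance. Leaving out a replicate gave 130 to 243 sites. The share of G was 85.7% at 5 reads with T and 67.5% to 73.1% without a replicate. The median ratio was 13.9% at a depth of 20, 20.97% at 5 reads with T and 14.6% to 16.5% without a replicate. The UNU share was 66.0% at a depth of 20, 85.7% at 5 reads with T, 63.6% at an input fold of 5, 46.2% among positions listed under both and 41.0% to 52.3% without a replicate. Positions higher by edgeR were 75 of 183 with no replicate block on the pairing and 19 of 63 at a depth of 20. They were 1 of 183 by Fisher's exact test and 1 to 5 of 185 to 197 without a replicate. The held-out ratio was 10.5% where 5 reads with T were needed to choose a position. Fewer positions pass a stricter threshold and more pass where fewer replicates must agree, by construction, and the cause of the other changes was not tested. The input fold of 5, the pooled input, a depth of 5, and leaving out near-copies kept the count of called sites within 1.5 times of 82. The 2 input settings could hardly lower it, since 69 of the 82 sites were given an input ratio of 0. Leaving out near-copies could not, since 0 sites had one. The 2 alternatives on near-copies by alignment and on balanced positions with at most 2 reads with T, and that on held-out depth (7.10%), were chosen after seeing the data.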
